A study of Mus musculus with 10 samples.

Results

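Axon guidance genes of the semaphorin, plexin, Slit and netrin systems were examined in cultured mouse cortical neurons. Members were all genes with a probe set of a single symbol that begins with Sema3 to Sema7 or Plxna to Plxnd, or that names a neuropilin, Slit, Robo, netrin, netrin-G or Unc5 gene or Dcc. This gave 49 of 22180 measured genes, comprising 26 ligands (7 secreted class 3 and 13 membrane-bound semaphorins, 3 Slits and 3 netrins), 20 receptors (9 plexins, 2 neuropilins, 4 Robos, 4 Unc5 genes and Dcc) and the 2 netrin-G genes. Plxna4os1, an antisense RNA whose symbol also fits the rule, was kept apart from the receptors.

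The neurons came from embryos at day 14.5 to 15.5 and were studied at day 7 in culture. ATF4-deficient neurons received sodium arsenite at 5 µM (2 arrays) or vehicle (2 arrays) for 12 hours, and wildtype neurons received arsenite (4 arrays) or vehicle (2 arrays) for the same time. ATF4 is the transcription factor that the integrated stress response raises, and arsenite is a thiol-reactive metalloid that triggers that response. The labels state neither the deleted part of Atf4, nor whether embryos were pooled, nor whether replicates came from separate litters, so p-values measure the spread between these samples only.

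Semaphorins are secreted or membrane-bound cues that mostly repel growing axons by binding plexins, with neuropilins as co-receptors for most of the secreted class 3. Slits are secreted repellents that bind Robo receptors, and netrins attract axons through Dcc and repel them through Unc5 receptors. In the embryonic cortex these systems steer commissural, corticofugal and thalamic axons and also act on neuronal migration, dendrites and synapses. Netrin-G proteins are anchored to the axon surface by lipid and bind leucine-rich repeat proteins of the postsynaptic side in place of Dcc or Unc5.

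Values are log2 expression from robust multiarray average (RMA), so a difference of 1 is a 2-fold change, and signals of different genes cannot be ranked as amounts of RNA because each rests on its own probes. The level of 6.63, under which 90% of the 1394 odorant and pheromone receptor genes had their means, served as a dim reference. Of the 49 members, 42 had a mean over all arrays above that level. All 6 neuron markers (Tubb3, Map2, Rbfox3, Snap25, Syt1 and Stmn2) lay above it in every group, as did 7 of 8 astrocyte markers, with S100b below, and 6 of 6 measured oligodendrocyte lineage markers. Atf4 read 7.54 and 7.70 in ATF4-deficient arsenite, 7.65 and 7.48 in ATF4-deficient vehicle, 9.43, 9.80, 9.64 and 9.91 in wildtype arsenite, and 9.09 and 9.56 in wildtype vehicle arrays. ATF4-deficient arsenite replicate 2 scored 29.4 on principal component 1, and the remaining 9 arrays scored -18.2 to 8.70. A gene was called at an adjusted p under 0.05 in limma, with Benjamini-Hochberg adjustment over all 22180 genes.

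**Figure D1:**
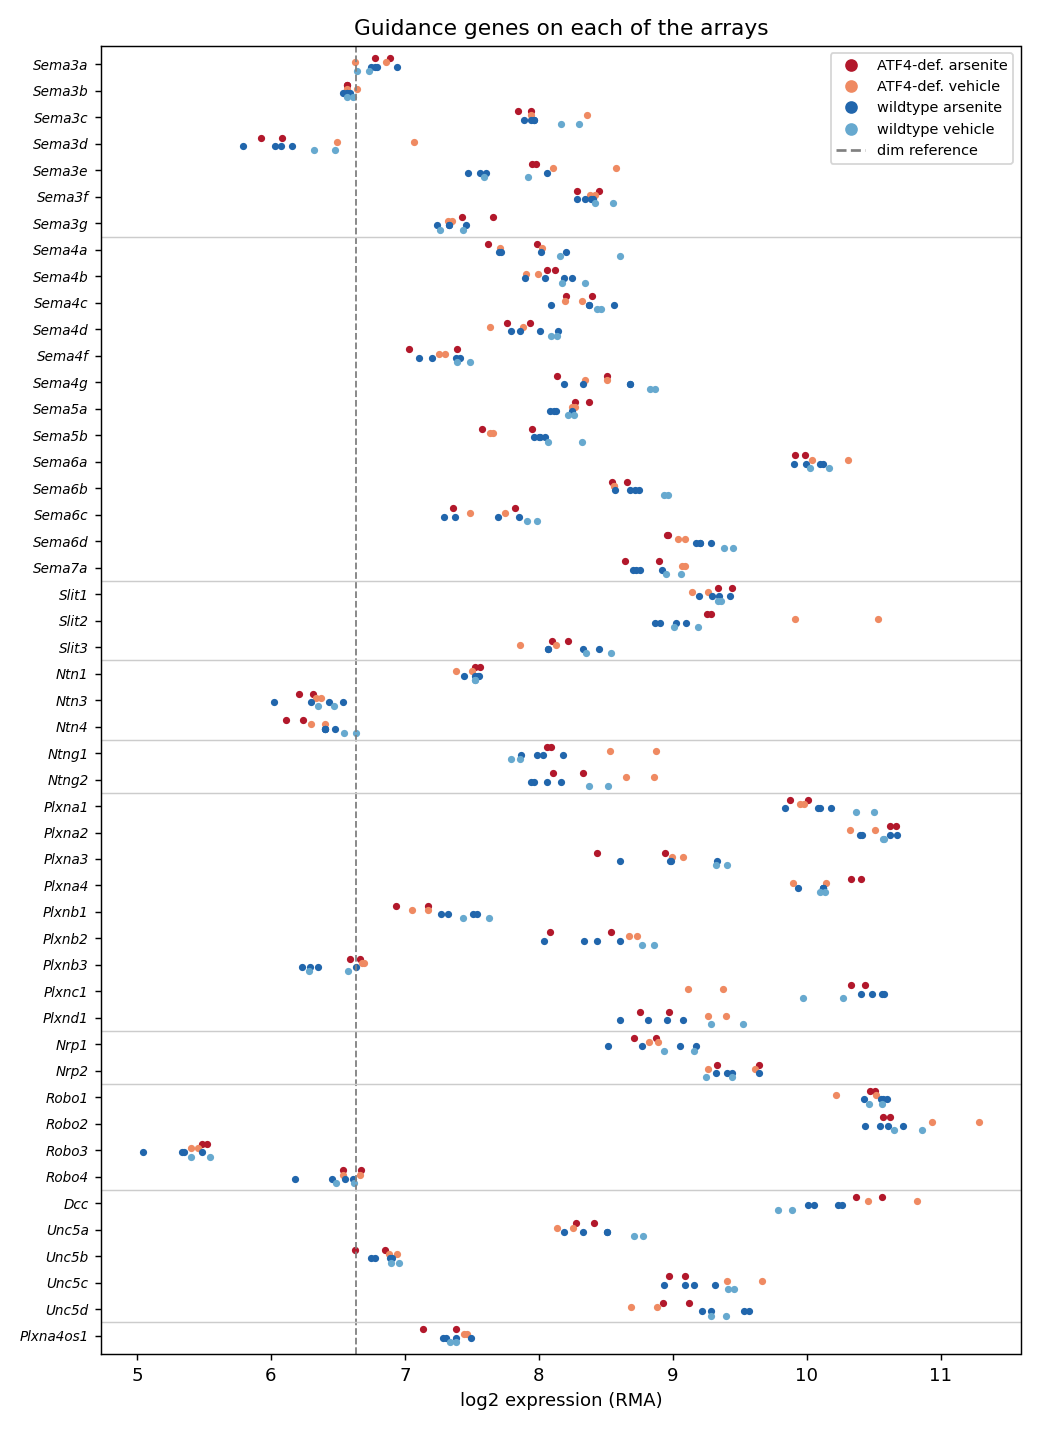
Log2 expression (RMA, horizontal axis) of the 49 guidance genes on each of the 10 arrays, grouped by family, with ATF4-deficient arsenite and vehicle arrays above wildtype arsenite and vehicle arrays in each row. The dashed line is the dim reference of 6.63, below which 7 members had their mean over all arrays, and in the Slit2 row the ATF4-deficient vehicle arrays stand to the right of the other 8.

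Under vehicle, 3 members were higher in ATF4-deficient than in wildtype neurons, namely Slit2, Ntng1 and Dcc, and 1 was lower, Plxnc1. No call was made for the other 45. In this comparison 0.18% of all genes were called higher and 0.252% lower, 0.433% together. Arrays did not overlap for 10 members that were higher and 23 that were lower, against 21.2% and 21.4% of all genes. The called members comprised a secreted repellent, a netrin-G gene, the attractive netrin receptor and a semaphorin receptor.

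Slit2, which encodes the secreted ligand of Robo1 and Robo2, read 9.29 and 9.25 in ATF4-deficient arsenite, 9.91 and 10.53 in ATF4-deficient vehicle, 9.02, 8.91, 8.86 and 9.10 in wildtype arsenite, and 9.01 and 9.19 in wildtype vehicle arrays. Both ATF4-deficient vehicle arrays lay above the other 8 arrays. The mean was 10.22 ± 0.43 in ATF4-deficient vehicle and 9.10 ± 0.13 in wildtype vehicle neurons (SD, n = 2 each), a 2.18-fold difference (1.12 log2, SE 0.17; limma, adjusted p = 0.0236). Ntng1, which encodes netrin-G1, read 8.53 and 8.87 in ATF4-deficient vehicle arrays, against 7.86 and 7.79 in wildtype vehicle arrays. Its groups did not overlap, and the difference was 0.88 log2 (SE 0.13; limma, adjusted p = 0.0236). Dcc, the receptor through which netrin-1 attracts commissural axons, read 10.46 and 10.82 in ATF4-deficient vehicle arrays, against 9.89 and 9.79 in wildtype vehicle arrays. It was 1.74-fold higher (0.80 log2, SE 0.14; limma, adjusted p = 0.0402), and its ATF4-deficient arsenite arrays (10.56 and 10.37) also lay above all 6 wildtype arrays.

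Plxnc1 encodes the plexin that binds Sema7a. It read 10.33 and 10.43 in ATF4-deficient arsenite, 9.11 and 9.38 in ATF4-deficient vehicle, 10.56, 10.48, 10.40 and 10.58 in wildtype arsenite, and 9.97 and 10.27 in wildtype vehicle arrays. The ATF4-deficient vehicle arrays were the lowest of the 10. The mean was 9.24 ± 0.19 in ATF4-deficient vehicle and 10.12 ± 0.21 in wildtype vehicle neurons (SD, n = 2 each), which is 1.83-fold lower (-0.87 log2, SE 0.13; limma, adjusted p = 0.0225). All 4 calls rest on single arrays of these small groups, and on the spread shared with the other groups. A fit to the 4 vehicle arrays alone called 0 genes of any kind (limma, adjusted p = 0.219 to 0.229 for these 4 members). Without wildtype vehicle replicate 2 none was kept (adjusted p = 0.169 for Slit2, 0.198 for Ntng1, 0.304 for Dcc and 0.192 for Plxnc1), nor without ATF4-deficient vehicle replicate 2 (0.190 for Slit2, 0.245 for Ntng1, 0.309 for Dcc and 0.170 for Plxnc1). Without wildtype vehicle replicate 1, Slit2, Ntng1 and Dcc were lost (0.131, 0.109 and 0.131), and without ATF4-deficient vehicle replicate 1, Plxnc1 was lost (0.0860). The Dcc call was also lost without each wildtype arsenite array (0.0515 to 0.0615), which do not enter its difference and change only the shared estimate of spread.

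**Figure D2:**
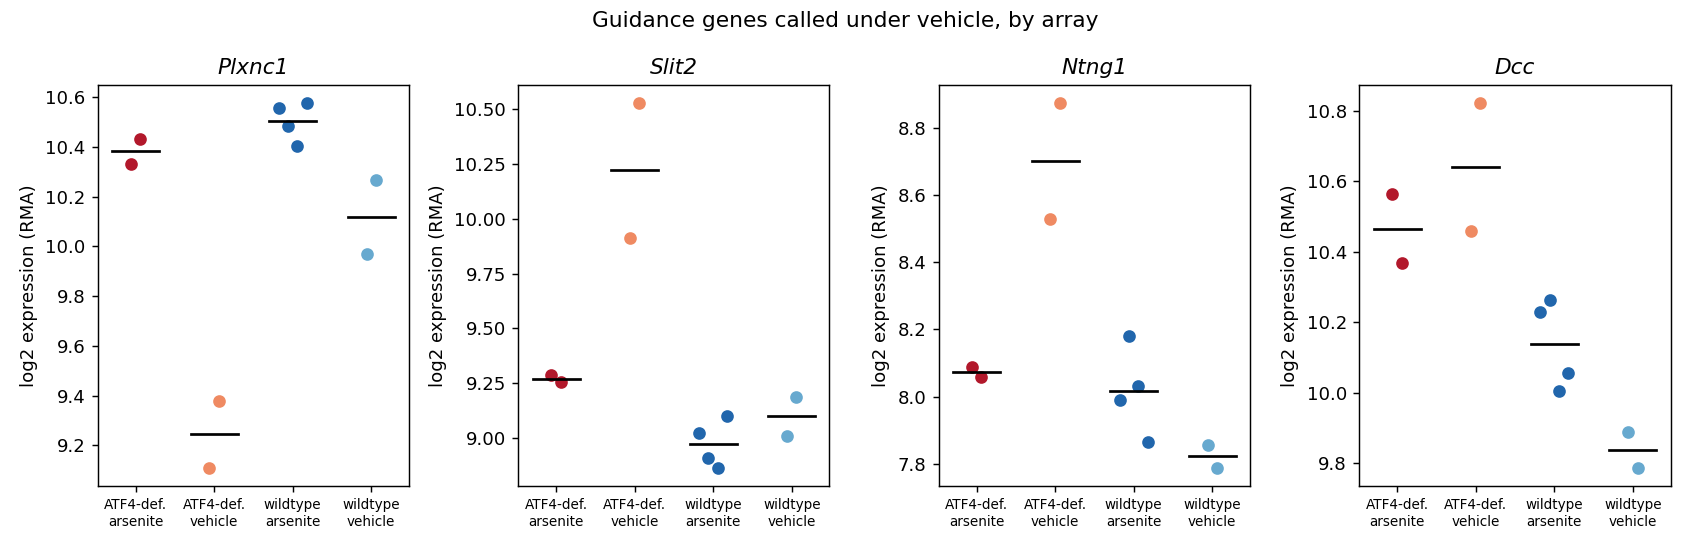
Log2 expression (RMA) of Plxnc1, Slit2, Ntng1 and Dcc on each array (points) with the group mean (bar); ATF4-def. is ATF4-deficient. The ATF4-deficient vehicle arrays are the lowest for Plxnc1 (9.11 and 9.38) and the highest for Slit2 (9.91 and 10.53) and Ntng1 (8.53 and 8.87), while all 4 ATF4-deficient arrays exceed the wildtype arrays for Dcc.

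The stretches before the annotated starts of the 3 of these genes with a RefSeq promoter entry usable here are shown because ATF4 is a DNA-binding factor and their transcripts differed between genotypes. The 250 bases are given 5′ to 3′ on the gene's strand in GRCm38.p6, and capitals mark a match to any of 3 motifs searched on both strands. These were TGATGNAAN (the C/EBP-ATF response element through which ATF4 acts), TGACNNNGC (the antioxidant response element) and TGACGTCA (the cyclic AMP response element).
Plxnc1 (chr10:94944846-94945095, minus strand): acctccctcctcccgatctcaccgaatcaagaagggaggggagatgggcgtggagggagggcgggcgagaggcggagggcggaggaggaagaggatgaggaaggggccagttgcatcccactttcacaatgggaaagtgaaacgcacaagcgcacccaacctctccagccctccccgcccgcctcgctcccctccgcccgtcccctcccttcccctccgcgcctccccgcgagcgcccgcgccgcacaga
Slit2 (chr5:47982905-47983154, plus strand): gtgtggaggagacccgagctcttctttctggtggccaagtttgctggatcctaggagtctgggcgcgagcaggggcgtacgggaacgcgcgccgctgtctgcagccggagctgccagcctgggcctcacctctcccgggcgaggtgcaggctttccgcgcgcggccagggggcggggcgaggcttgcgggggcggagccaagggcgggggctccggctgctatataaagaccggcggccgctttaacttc
Ntng1 (chr3:110143473-110143722, minus strand): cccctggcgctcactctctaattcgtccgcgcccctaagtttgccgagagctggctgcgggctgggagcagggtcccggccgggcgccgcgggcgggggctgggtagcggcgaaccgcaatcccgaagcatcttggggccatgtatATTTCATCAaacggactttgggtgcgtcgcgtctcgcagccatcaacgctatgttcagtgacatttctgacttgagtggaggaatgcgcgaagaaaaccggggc
The Ntng1 stretch held a match to TGATGNAAN on the opposite strand, 104 to 96 bases before the start, and the other 2 stretches held no match. That motif occurred in 3.44% of 32851 RefSeq promoters at this length, TGACNNNGC in 10.2% and TGACGTCA in 1.55%. Of the 39 members with a promoter entry, 1 held the first motif (Ntng1), 6 the second (Ntn4, Plxnb3, Sema3g, Sema4a, Sema4d and Sema7a) and 0 the third.

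In ATF4-deficient neurons, arsenite raised Plxnc1 and lowered Slit2 and Ntng1, and 46 members did not pass. Among all genes 0.631% were called higher and 0.523% lower, 1.15% together. Arrays did not overlap for 11 members that were higher and 18 that were lower, against 18.1% and 20.7% of all genes, and 12% of all genes had an unadjusted p under 0.05. Plxnc1 was 2.20-fold higher under arsenite (10.38 ± 0.07) than under vehicle (9.24 ± 0.19; SD, n = 2 each), with a difference of 1.14 log2 (SE 0.13; limma, adjusted p = 0.00308). Slit2 fell to 9.27 ± 0.02 under arsenite, against 10.22 ± 0.43 under vehicle (SD, n = 2 each; -0.95 log2, SE 0.17; limma, adjusted p = 0.0279). Ntng1 fell to 8.07 ± 0.02 under arsenite, against 8.70 ± 0.24 under vehicle (SD, n = 2 each; -0.63 log2, SE 0.13; limma, adjusted p = 0.0480). This comparison and the genotype comparison under vehicle use the same 2 ATF4-deficient vehicle arrays, so the opposite signs of these genes in the 2 comparisons are not separate observations.

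Dcc gave -0.18 log2 here (95% interval -0.48 to 0.13; limma, adjusted p = 0.684). The Plxnc1 call held whichever of the 10 arrays was left out (limma, adjusted p = 0.00460 to 0.0352). Slit2 was lost without either ATF4-deficient arsenite array (adjusted p = 0.0877 and 0.155) and without ATF4-deficient vehicle replicate 2 (-0.64 log2, adjusted p = 0.129). Ntng1 was lost without any 1 of the 10 arrays (adjusted p = 0.0547 to 0.238). A fit to the 4 ATF4-deficient arrays alone called 0 genes of any kind.

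Arsenite in wildtype neurons gave 0 calls among the 49 members, where 0.482% of all genes were called by limma. At an unadjusted p under 0.05, 2 members were higher and 14 lower, against 10.9% of all genes in either direction. The largest differences, none past the threshold, were Plxnd1 (-0.54 log2, SE 0.13; limma, adjusted p = 0.116), the membrane-bound Sema4a (-0.47; 0.337) and Plxnb2, a receptor for class 4 semaphorins (-0.46; 0.271). Plxnc1 averaged 10.50 ± 0.08 (SD, n = 4) under arsenite and 10.12 ± 0.21 (SD, n = 2) under vehicle, without overlap of the arrays, as for 7.86% of all genes (0.39 log2, 95% interval 0.14 to 0.63; limma, adjusted p = 0.192). For Slit2 the wildtype difference was -0.12 log2 with an interval of -0.45 to 0.20, and for Ntng1 it was 0.19 with an interval of -0.06 to 0.44.

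The difference between the arsenite responses of ATF4-deficient and wildtype neurons was tested directly. Among the members 0 were called by limma and 0% of all genes were, under the main settings and every alternative run. At an unadjusted p under 0.05, 5 members were higher and 3 lower, with 6% of all genes at that level. The largest estimates were -0.83 log2 for Slit2 (SE 0.22; limma, adjusted p = 0.744), -0.82 for Ntng1 (SE 0.17; 0.538) and 0.75 for Plxnc1 (SE 0.17; 0.687). A differing response of these genes was therefore not shown over all genes tested.

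Under arsenite, ATF4-deficient and wildtype neurons gave 0 called members, with 0.343% of all genes called, 0.0721% higher and 0.271% lower. Arrays did not overlap for 5 members that were higher and 5 that were lower, against 10.6% and 7.95% of all genes. At an unadjusted p under 0.05, 2 members were higher and 4 lower, and 12.1% of all genes were at that level. The largest estimates, none past the threshold, were for Unc5d, an Unc5 family receptor (-0.38 log2; limma, adjusted p = 0.255), Plxnb1, the receptor of Sema4d (-0.36; 0.252), and Dcc (0.33; 0.320). Plxnc1 differed by -0.12 log2 (95% interval -0.37 to 0.12), Ntng1 by 0.06 (-0.19 to 0.31) and Slit2 by 0.30 (-0.03 to 0.62).

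Averaging over the other factor uses all 10 arrays for each effect. Averaged over treatments, 3 members were higher in ATF4-deficient neurons (Slit2 by 0.71 log2, Dcc by 0.56 and Ntng1 by 0.47) and 4 were lower, with 0.582% of all genes called higher and 1.24% lower, 1.82% together. At an unadjusted p under 0.05, 6 members were higher and 14 lower, with 16.3% of all genes at that level. Arrays did not overlap for 2 members that were higher and 4 that were lower, against 1.23% and 1.49% of all genes. Since these averages include the vehicle arrays above, those 3 and Plxnc1 (-0.50) repeat the vehicle result in part. The members called here alone were Unc5d, Sema5b and Sema6d. Among these, Unc5d showed the largest estimate. It read 9.12 and 8.93 in ATF4-deficient arsenite, 8.88 and 8.68 in ATF4-deficient vehicle, 9.57, 9.29, 9.22 and 9.53 in wildtype arsenite, and 9.39 and 9.28 in wildtype vehicle arrays. The 4 ATF4-deficient values were lower than all 6 wildtype values (-0.47 log2, SE 0.09; limma, adjusted p = 0.0298).

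Sema6d, a membrane-bound semaphorin that binds class A plexins, read 8.96 and 8.96 in ATF4-deficient arsenite, 9.09 and 9.04 in ATF4-deficient vehicle, 9.20, 9.20, 9.17 and 9.28 in wildtype arsenite, and 9.38 and 9.45 in wildtype vehicle arrays. The genotypes did not overlap, and the 4 groups lay in that order without overlap (-0.30 log2, SE 0.06; limma, adjusted p = 0.0270). Sema5b, a membrane-bound semaphorin with thrombospondin repeats, averaged 7.76 ± 0.27 in ATF4-deficient arsenite (SD, n = 2), 7.64 ± 0.01 in ATF4-deficient vehicle (SD, n = 2), 8.01 ± 0.03 in wildtype arsenite (SD, n = 4) and 8.19 ± 0.18 in wildtype vehicle neurons (SD, n = 2). Its genotypes did not overlap either (-0.40 log2, SE 0.09; limma, adjusted p = 0.0447). The Sema6d and Sema5b calls were each lost in 9 of the 10 fits that left out 1 array (adjusted p up to 0.137 for Sema6d and 0.171 for Sema5b). Leaving out 1 array at a time gave 0 to 3 higher and 0 to 5 lower members, with both counts at 0 without wildtype vehicle replicate 2. The lower count was 1 without ATF4-deficient arsenite replicate 2, either ATF4-deficient vehicle array, wildtype arsenite replicate 4 or wildtype vehicle replicate 1, and 2 without ATF4-deficient arsenite replicate 1 or wildtype arsenite replicate 1 or 2. The higher count was 1 without ATF4-deficient vehicle replicate 2 or wildtype vehicle replicate 1.

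Averaged over genotypes, arsenite raised Plxnc1 (0.76 log2, SE 0.08; limma, adjusted p = 0.00128) and lowered Sema3d, Slit2, Plxnd1, Ntng2 and Unc5c, with 1.65% of all genes called higher and 1.42% lower, 3.07% together. At an unadjusted p under 0.05, 1 member was higher and 14 lower, with 16.1% of all genes at that level. Arrays did not overlap for 1 member that was higher and 6 that were lower, against 1.84% and 2.01% of all genes. Ntng2, which encodes netrin-G2, read 8.33 and 8.11 in ATF4-deficient arsenite, 8.65 and 8.86 in ATF4-deficient vehicle, 8.17, 7.94, 7.97 and 8.06 in wildtype arsenite, and 8.51 and 8.38 in wildtype vehicle arrays. All 6 arsenite arrays lay below all 4 vehicle arrays (-0.48 log2, SE 0.08; limma, adjusted p = 0.0113). The response was -0.54 in ATF4-deficient and -0.41 in wildtype neurons, neither past the threshold alone.

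Plxnd1, the plexin that binds Sema3e directly, read 8.97 and 8.76 in ATF4-deficient arsenite, 9.26 and 9.40 in ATF4-deficient vehicle, 9.07, 8.82, 8.61 and 8.96 in wildtype arsenite, and 9.52 and 9.29 in wildtype vehicle arrays. The treatments did not overlap (-0.50 log2, SE 0.10; limma, adjusted p = 0.0233), and the wildtype estimate (-0.54) was close to the ATF4-deficient one (-0.47). Its ligand gene Sema3e averaged 7.97 ± 0.02 in ATF4-deficient arsenite, 8.34 ± 0.33 in ATF4-deficient vehicle, 7.67 ± 0.26 in wildtype arsenite and 7.75 ± 0.23 in wildtype vehicle neurons (SD, n = 4 for wildtype arsenite and 2 for the others), and did not pass in any comparison.

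Unc5c, a receptor for netrin-mediated repulsion, read 9.09 and 8.97 in ATF4-deficient arsenite, 9.40 and 9.67 in ATF4-deficient vehicle, 9.16, 9.09, 8.93 and 9.31 in wildtype arsenite, and 9.41 and 9.45 in wildtype vehicle arrays. Arsenite arrays lay below vehicle arrays throughout (-0.40 log2, SE 0.09; limma, adjusted p = 0.0334). Sema3d, a secreted class 3 semaphorin, read 6.08 and 5.93 in ATF4-deficient arsenite, 6.50 and 7.06 in ATF4-deficient vehicle, 6.16, 6.03, 5.79 and 6.08 in wildtype arsenite, and 6.32 and 6.48 in wildtype vehicle arrays. The treatments did not overlap (-0.58 log2, SE 0.12; limma, adjusted p = 0.0232), but 9 of its 10 values were under the dim reference, where background signal compresses differences. Slit2 (-0.54 log2; limma, adjusted p = 0.0279) averaged an ATF4-deficient response of -0.95 and a wildtype response of -0.12. The Plxnc1 call held whichever array was left out (adjusted p = 0.00300 to 0.00935). The count of 5 lower members was 0 without ATF4-deficient vehicle replicate 2 or wildtype vehicle replicate 1, 1 without ATF4-deficient arsenite replicate 2, and 2 without wildtype arsenite replicate 2 or wildtype vehicle replicate 2.

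**Figure D3:**
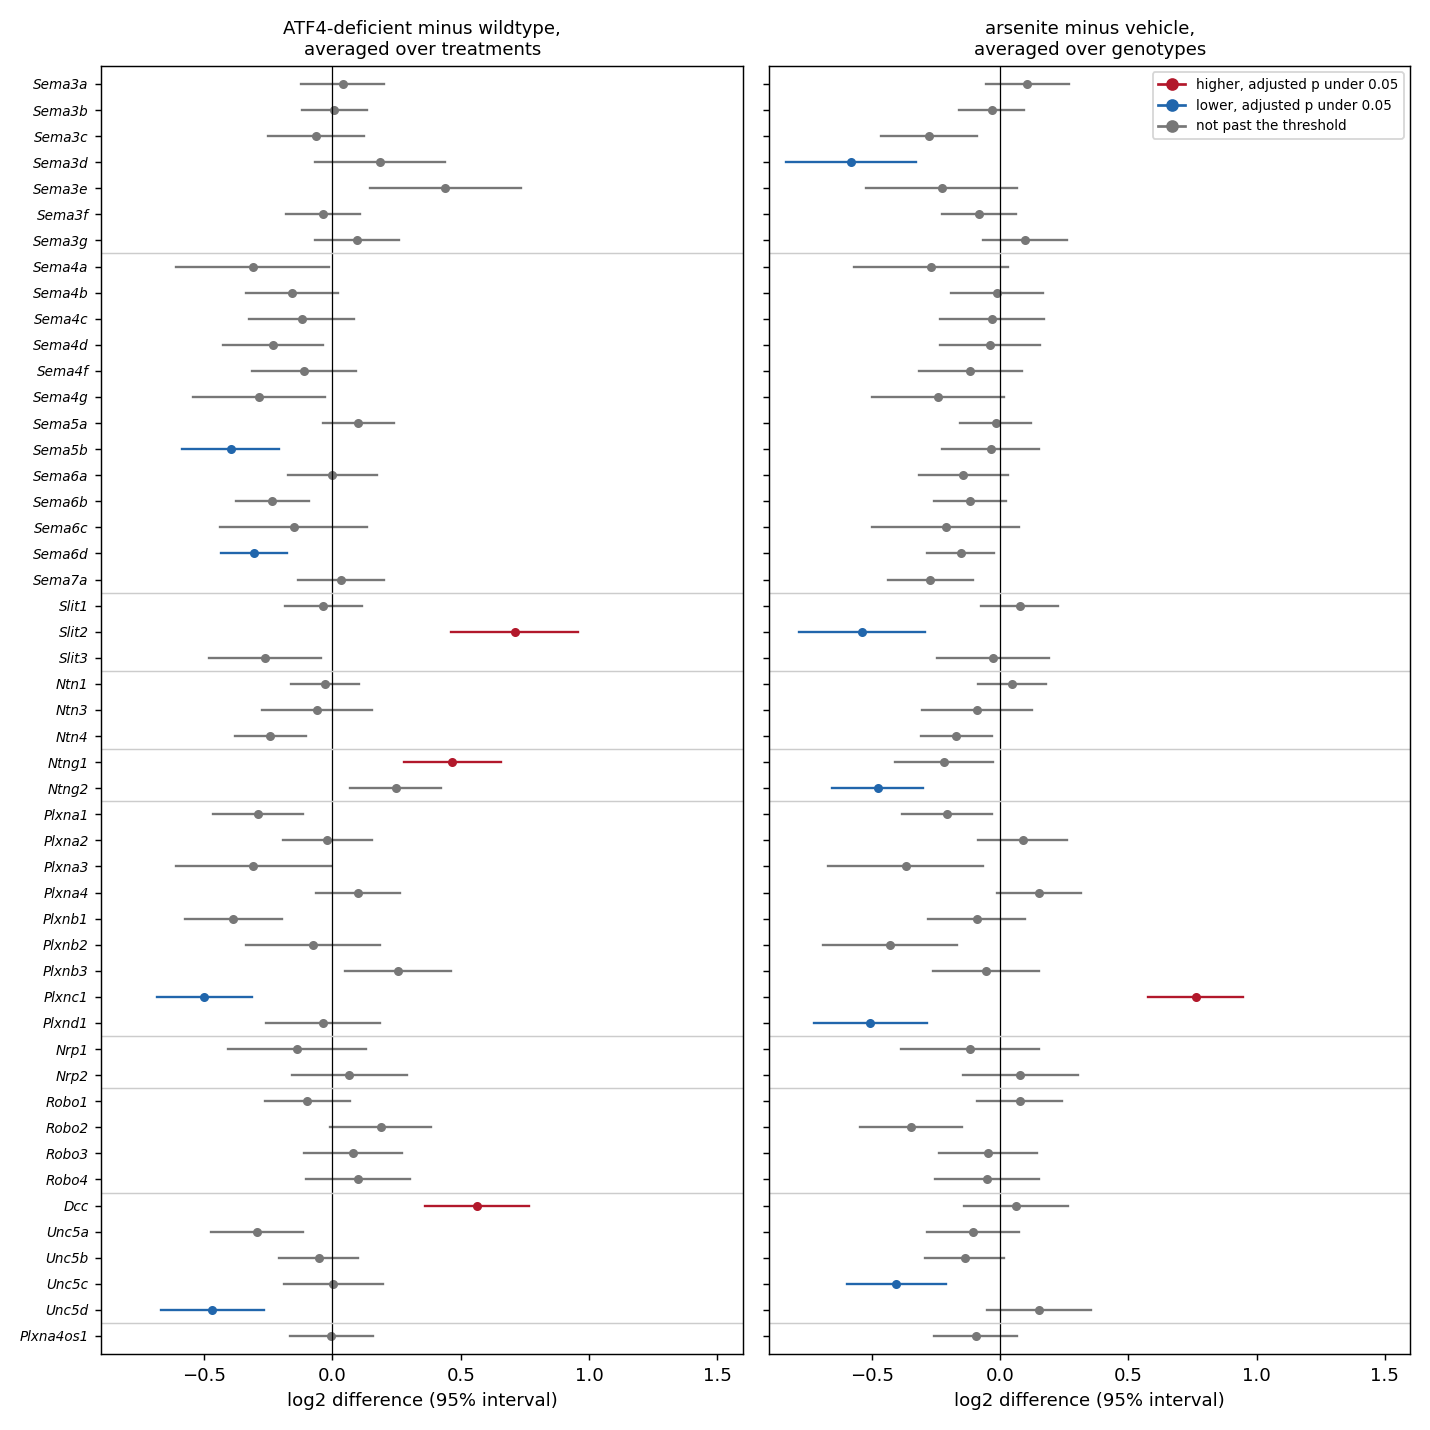
Log2 differences (points) with 95% intervals (lines) of the 49 guidance genes, for ATF4-deficient minus wildtype averaged over treatments (left) and arsenite minus vehicle averaged over genotypes (right); colours mark genes past an adjusted p of 0.05. On the left Slit2, Dcc and Ntng1 are higher and Plxnc1, Unc5d, Sema5b and Sema6d lower, and on the right Plxnc1 is higher at 0.76.

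Most membrane-bound semaphorins (classes 4 to 7) had negative estimates in a pair of comparisons that use the same 2 wildtype vehicle arrays. In wildtype neurons all 13 had negative estimates for arsenite minus vehicle, from -0.47 for Sema4a to -0.06 for Sema6a, with a median of -0.19 log2, and the median of all genes was -0.02. Arsenite arrays lay wholly below vehicle arrays for 6 of the 13, which 12.7% of all genes did, and 0 were called. For ATF4-deficient minus wildtype under vehicle, 10 of the 13 were negative, with a median of -0.33 against 0.00 for all genes. In all 10 of these the ATF4-deficient arrays lay wholly below the wildtype ones, as 21.4% of all genes did, again with 0 called. For arsenite in ATF4-deficient neurons, which does not use those arrays, 7 of the 13 were negative and 6 positive, with a median of -0.03. Of the 7 secreted semaphorins, 6 were negative for arsenite in wildtype neurons, 3 of them with arsenite arrays wholly below vehicle arrays (median -0.08). For genotype under vehicle 3 of the 7 were negative, and for 0 of them did the ATF4-deficient arrays lie wholly below the wildtype ones (median 0.02). Among the 9 plexins, 8 were negative for arsenite in wildtype neurons (median -0.12). For genotype under vehicle 8 of the 9 were negative (median -0.16), 6 with ATF4-deficient arrays wholly below wildtype ones. Mostly negative estimates in these comparisons were thus not particular to membrane-bound semaphorins. The difference between the subfamilies was not tested, because the genes were chosen with earlier results of these data known.

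Sema6b, for example, read 8.66 and 8.54 in ATF4-deficient arsenite, 8.56 and 8.56 in ATF4-deficient vehicle, 8.72, 8.74, 8.56 and 8.68 in wildtype arsenite, and 8.94 and 8.97 in wildtype vehicle arrays. The wildtype vehicle arrays were the highest of the 10 for Sema6b, as also for Sema4g (8.83 and 8.87), Sema5b (8.32 and 8.06), Sema6c (7.98 and 7.91) and Sema6d. The comparisons that share these arrays are not independent. Exceptions under vehicle were Sema7a (0.07 log2), Sema6a (0.08) and Sema5a (0.02). Sema7a, the ligand of Plxnc1, averaged 8.77 ± 0.18 in ATF4-deficient arsenite, 9.08 ± 0.01 in ATF4-deficient vehicle, 8.78 ± 0.10 in wildtype arsenite and 9.01 ± 0.08 in wildtype vehicle neurons (SD, n = 4 for wildtype arsenite and 2 for the others), and it did not pass in any comparison.

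**Figure D4:**
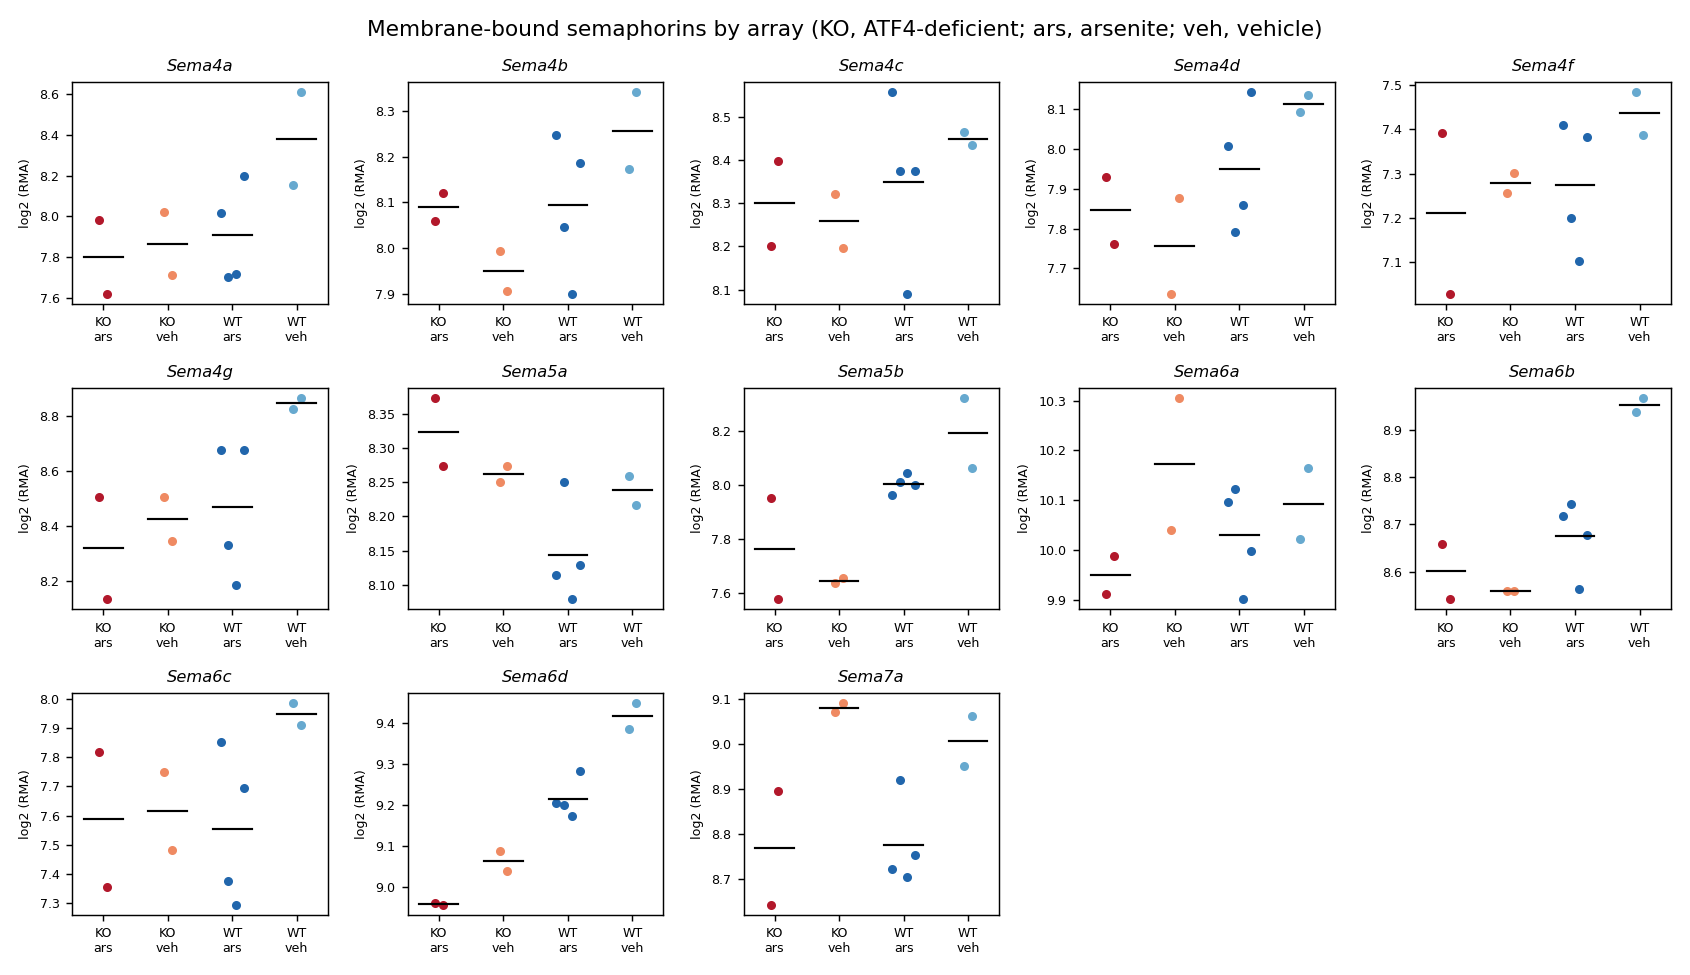
Log2 expression (RMA) of the 13 membrane-bound semaphorin genes on each array (points) with group means (bars), where KO is ATF4-deficient and WT wildtype. The wildtype vehicle arrays are above both ATF4-deficient vehicle arrays in 10 of the 13 panels, and in the Sema6b panel they are the highest at 8.94 and 8.97.

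Summed levels of markers of astrocytes, of the oligodendrocyte lineage and of progenitor and cycling cells also differed between groups. For astrocyte markers the 2 ATF4-deficient groups overlapped, as did the 2 wildtype groups. The wildtype groups also overlapped for progenitor and cycling markers. The summed level of the 8 astrocyte markers was 10.2 to 10.7 log2 in ATF4-deficient arsenite, 10.3 to 10.7 in ATF4-deficient vehicle, 10.8 to 11.5 in wildtype arsenite and 11.5 to 11.8 in wildtype vehicle arrays. For the 6 measured oligodendrocyte lineage markers it was 9.75 to 9.98, 10.1 to 10.2, 10.2 to 10.5 and 10.6 to 10.9 in the same groups. Sums were taken over unlogged values, so the brightest markers weigh most. Slc1a2 went against the other astrocyte markers. Its ATF4-deficient and wildtype means were 7.93 and 7.82 under arsenite, and 8.15 and 8.02 under vehicle. Mbp was likewise not lower in ATF4-deficient neurons, at 7.07 in both genotypes under arsenite, and 7.12 against 7.04 under vehicle. The summed level of the 6 progenitor and cycling markers was 10.02 to 10.14 log2 in ATF4-deficient arsenite, 10.14 to 10.24 in ATF4-deficient vehicle, 10.27 to 10.61 in wildtype arsenite and 10.42 to 10.72 in wildtype vehicle arrays, so the genotypes did not overlap. Of these, Sox2 (-0.60 log2, limma adjusted p = 0.0373) and Hes5 (-0.59, limma adjusted p = 0.0129) were lower in ATF4-deficient neurons in the genotype average. Means of Mki67, Top2a and Pax6 were also lower in ATF4-deficient neurons under each treatment, by smaller margins. Eomes went the other way. Its ATF4-deficient and wildtype means were 6.58 and 6.56 under arsenite, and 6.92 and 6.66 under vehicle. Several guidance genes are known to be made by glia and progenitors as well as by neurons, and in bulk RNA fewer cells of a type and less RNA per cell cannot be told apart. The summed level of the 6 neuron markers was 14.2 to 14.4 in ATF4-deficient arsenite, 14.3 to 14.4 in ATF4-deficient vehicle, 14.2 to 14.5 in wildtype arsenite and 14.5 in wildtype vehicle arrays. Tubb3 was lower on every ATF4-deficient array (10.684 to 11.065) than on every wildtype array (11.077 to 11.397). Map2 under arsenite and Snap25 under vehicle had higher ATF4-deficient means. The 5 measured excitatory markers summed to 11.89 to 11.96, 11.70 to 11.81, 11.60 to 11.76 and 11.76 to 11.80 in the same groups. The 4 measured inhibitory markers summed to 10.73 to 10.88, 10.87 to 10.97, 10.74 to 11.10 and 10.83 to 11.08. Of the meningeal fibroblast markers, Col1a1 read 8.14 and 7.93 on wildtype arsenite replicates 2 and 3, against 7.02 to 7.25 on the other 8 arrays. Of the microglia markers 3 of 6 had group means above the dim reference, and of the endothelial markers 1 or 2 of 5. The part of these markers in the guidance gene results was not tested.

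Ligands and receptors as classes were compared across the groups by the median gene of each class. The ligand median was 7.97 and 7.91 in ATF4-deficient arsenite, 8.01 and 7.89 in ATF4-deficient vehicle, 8.04, 7.99, 7.89 and 8.14 in wildtype arsenite, and 8.22 and 8.19 in wildtype vehicle arrays. The wildtype vehicle arrays were the highest of the 10 here. The receptor median was 9.03 and 8.84 in ATF4-deficient arsenite, 9.05 and 9.23 in ATF4-deficient vehicle, 9.24, 9.03, 8.77 and 9.24 in wildtype arsenite, and 9.40 and 9.30 in wildtype vehicle arrays, again highest in wildtype vehicle. The receptor medians of the wildtype arsenite replicates ranged from 8.77 to 9.24, which takes in all values of both ATF4-deficient groups. The array medians over all genes stayed within 7.00 to 7.09.

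The median differences of the classes lay close together. For arsenite in wildtype neurons the median difference was -0.16 log2 over the 26 ligands, 25 of them negative, and -0.11 over the 20 receptors, 15 of them negative. For genotype under vehicle it was -0.12 for ligands, 18 of them negative, and -0.10 for receptors, 14 of them negative. For arsenite in ATF4-deficient neurons it was -0.04 for each class. In the genotype average 1 ligand rose and 2 fell, as did 1 and 2 receptors, so neither class stood out by its count of calls.

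**Figure D5:**
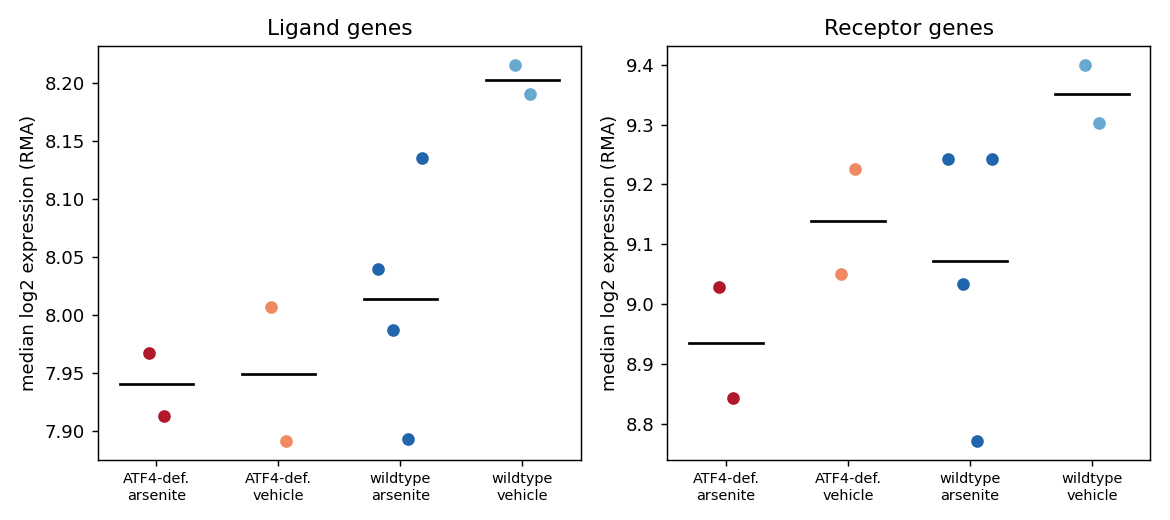
Median log2 expression (RMA) over the 26 ligand genes (left) and the 20 receptor genes (right) on each array (points), with the mean of each group (bar); ATF4-def. is ATF4-deficient. The wildtype vehicle arrays are highest in both panels, at 8.22 and 8.19 for ligands and 9.40 and 9.30 for receptors, and the wildtype arsenite arrays overlap both ATF4-deficient groups; the vertical axes do not start at 0.

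The remaining receptors did not pass in any comparison. Robo1 and Robo2, the neuronal Slit receptors, had means over all arrays of 10.49 and 10.72, and Robo2 read 10.93 and 11.28 in ATF4-deficient vehicle against 10.86 and 10.65 in wildtype vehicle arrays (0.35 log2; limma, adjusted p = 0.361). Robo3, which acts in commissural axons, and Robo4, known from endothelium, averaged 5.40 and 6.53, under the dim reference. Among class A plexins, which pair with neuropilins, Plxna1 averaged 10.09, Plxna2 10.54, Plxna3 9.01 and Plxna4 10.13. Plxna1 was 0.47 lower in ATF4-deficient vehicle than in wildtype vehicle arrays (limma, adjusted p = 0.136), and all 8 other arrays lay below its wildtype vehicle values of 10.37 and 10.50. Plxnb1, Plxnb2 and Plxnb3, receptors for class 4 and 5 semaphorins, averaged 7.30, 8.51 and 6.50. The co-receptors Nrp1 and Nrp2, which bind Sema3a and Sema3f, averaged 8.89 and 9.43, with differences within 0.19 log2 of 0 in every comparison. Unc5a (8.41) and Unc5b (6.85) completed the netrin receptors, and Unc5a was 0.55 lower in ATF4-deficient than in wildtype neurons under vehicle, without overlap and short of the threshold (limma, adjusted p = 0.0880).

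Among the remaining ligands, Ntn1, the ligand of Dcc, stayed between 7.38 and 7.56 on all 10 arrays. Ntn3 (6.33) and the basement membrane netrin Ntn4 (6.39) had means under the dim reference. Slit1 averaged 9.31 and Slit3 8.21. The secreted semaphorins Sema3a (6.78), Sema3b (6.58), Sema3c (8.03), Sema3f (8.39) and Sema3g (7.38) did not pass, nor did Sema4a (7.97), Sema4b (8.10), Sema4c (8.34), Sema4d (7.92), Sema4f (7.29), Sema4g (8.51), Sema5a (8.22), Sema6a (10.05), Sema6b (8.69) or Sema6c (7.65). Plxna4os1 averaged 7.36, and its estimates lay between -0.20 and 0.10 in every comparison.

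Of 46 listed signalling partners and co-receptors, 43 were measured. Draxin, a secreted repellent that binds Dcc and netrin-1, was the single partner called in a comparison within a treatment or genotype. It read 8.90 and 8.83 in ATF4-deficient arsenite, 8.03 and 8.03 in ATF4-deficient vehicle, 9.27, 9.22, 8.93 and 8.90 in wildtype arsenite, and 8.74 and 8.89 in wildtype vehicle arrays. Like Plxnc1, its 2 ATF4-deficient vehicle arrays were the lowest of the 10. It was 0.79 log2 lower in ATF4-deficient than in wildtype neurons under vehicle (-0.79, SE 0.14; limma, adjusted p = 0.0401) and 0.84 higher with arsenite in ATF4-deficient neurons (SE 0.14; limma, adjusted p = 0.0196). In the averages Draxin was called again, higher with arsenite (0.55 log2) and lower in ATF4-deficient neurons. Arsenite also lowered Met, a tyrosine kinase that couples to plexin B receptors (-0.94, limma adjusted p = 0.0356). ATF4-deficient neurons also had less Dock1, an exchange factor for Rac downstream of Dcc (-0.67, limma adjusted p = 0.0312). The arsenite average thus called 1 partner higher and 1 lower, with 3.07% of all genes called. The genotype average called 0 higher and 2 lower, with 1.82% of all genes called. The median partner difference was -0.17 log2 for genotype under vehicle, with 37 of 43 negative. Over all genes the median was 0.00, with 10837 of 22180 negative. In that comparison 0.433% of all genes were called, and for arsenite in ATF4-deficient neurons 1.15% were.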

How the data were processed

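RNA from 10 samples was labelled from 100 ng total RNA with the Affymetrix WT PLUS kit, per the labels' protocols. The authors deposited log2 expression values, normalized by robust multiarray average in Partek 6.6 per the submitters' processing notes and the series design text. RMA gives all arrays like distributions, which hides a shift common to most transcripts. A genome build for the array was not given in the sources used here. RefSeq GRCm38.p6 served for names and promoters.

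Of 41345 probe sets, 23521 had exactly 1 gene symbol, 1814 several and 16010 no entry in the platform annotation. The brightest probe set by mean stood for each of 22180 genes, and no gene was removed for low signal. Plxna1 and Plxnb1 were the 2 members with more than 1 probe set, and Ntn5, whose probe set names several genes, was not used. In limma 3.58.1 (R 4.3.3), 1 model with 4 group means covered the 10 arrays (6 residual degrees of freedom, prior 5.08 degrees of freedom, prior SD 0.124 log2), with 7 contrasts and two-sided moderated tests. The fit was run on simulated arrays with independent noise and shifts of 1 or 2 log2 in the ATF4-deficient arsenite group only. Smaller group shifts and array effects shared between genes were not simulated, so that run does not bear on them. The number of arrays limits precision. Named members were those called in a contrast, and where fewer than 3 were called, the largest differences up to 3. Alternatives were a filter on dim genes, averaged probe sets, equal array medians, array weights, a replicate block, an intensity trend, only the groups compared, and leaving out each array. The members and lists were chosen with earlier results of these data known.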

Additional observations from a re-analysis of the deposited data

Results flagged for a closer look

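In wildtype arsenite, the only group with 4 arrays, each of the 49 members was examined for a single array far from the others, and 2 were found, where chance flags about 1 in 20 groups. Plxna4 was at 9.93 on replicate 3, against 10.12 on each of the other 3 arrays. Ntn4 was at 6.48 on replicate 2, against 6.40 on each of the other 3, a gap of under 0.1 log2 below the dim reference.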

How the results depend on the processing

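No estimate for a named member changed sign under any alternative run. With array weights, 0 members were lower for arsenite in ATF4-deficient neurons in place of 2, and with equal array medians the count was 1. With only the 2 groups compared in the fit, the counts in that comparison were 0 higher and 0 lower in place of 1 and 2, and for genotype under vehicle 0 higher and 0 lower in place of 3 and 1, since few residual degrees of freedom remain. With dim genes filtered, probe sets averaged or array medians equalized, the median ligand and receptor differences moved by less than the replicate spread. That spread was the SD of the class medians over the wildtype arsenite arrays. The median differences were not computed with array weights, the replicate block, the intensity trend or only the groups compared. With each array left out in turn, members lower for arsenite in ATF4-deficient neurons numbered 0 to 2, and those higher stayed at 1. For genotype under vehicle the counts were 0 to 3 higher and 0 to 1 lower. For the arsenite average they were 1 higher and 0 to 6 lower, and for the genotype average 0 to 3 higher and 0 to 5 lower. Over all genes, too, the count of calls rose or fell beyond a set limit in 38 leave-one-out results. Calls lost in these fits, here and above, may thus not be particular to the members. Signal near background limits Robo3, Robo4, Plxnb3, Sema3b, Sema3d, Ntn3 and Ntn4.

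Replicate numbers recur across groups. Of 12 same-numbered array pairs, 5 had deviations from their group means correlated above 0.1 (range -0.06 to 0.40, median 0.09). Of 24 differently numbered pairs, 5 did (range -0.40 to 0.36, median -0.09). In a group of 2 arrays the deviations mirror each other, so this check cannot decide whether the numbers pair the samples. With the replicate number as a block, members lower were 1 in place of 2 for arsenite in ATF4-deficient neurons and 2 in place of 1 for genotype under vehicle. The block ended the calls of Ntng1 for arsenite in ATF4-deficient neurons (limma, adjusted p = 0.0547), of Sema3d in the arsenite average (0.0503) and of Sema5b (0.0644) and Sema6d (0.0561) in the genotype average, and no other call of a named member. Lower members then numbered 4 in place of 5 in the arsenite average and 3 in place of 4 in the genotype average. Replicate numbers 3 and 4 occur only in wildtype arsenite, so with the block those 2 arrays no longer entered that group's mean. Over all genes the block gave 4 calls in place of 76 for genotype under arsenite and 17 in place of 107 for arsenite in wildtype neurons. For genotype under vehicle it gave 165 in place of 96. Array weights gave 135 in place of 256 for arsenite in ATF4-deficient neurons, 186 for arsenite in wildtype neurons, 40 for genotype under arsenite and 228 for genotype under vehicle. Without dim genes the wildtype arsenite and vehicle genotype counts were 162 and 193, and with only the groups compared the 4 counts were 0, 11, 41 and 0 in the order just given.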

Other observations

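The second probe sets of Plxna1 and Plxnb1 were not used in the comparisons. For ATF4-deficient minus wildtype under vehicle, the Plxna1 probe sets gave -0.47 log2 (mean signal 10.09) and -0.20 (mean signal 7.14). For Plxnb1 they gave -0.41 (mean signal 7.30) and -0.02 (mean signal 6.37), the last being under the dim reference.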
